A study of Sus scrofa domesticus with 16 samples.

Results

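Immediate early genes are transcribed within minutes of a stimulus from factors already present in the cell, and the members described here are FOS, IER3 and their companions on a porcine expression array. The members were chosen by gene symbol in the array's annotation, with earlier results of these data known. Of the 10 genes in the rule, 6 had a probe set (FOS, IER3, FOSL2, JUN, EGR1 and ATF3), and together they had 8 of the array's 23999 probe sets, because EGR1 had 3. FOSB, JUNB, JUND and NR4A1 were not analysed here. All 8 probe sets passed the filter on low signal (a mean log2 signal of at least 6.15), which 14399 of all probe sets passed.

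FOS and JUN proteins pair through leucine zippers to form AP-1, a transcription factor that binds many stress-responsive promoters, and FOSL2 is a FOS relative that can take the place of FOS in the pair. EGR1 is a zinc finger transcription factor, ATF3 is a leucine zipper factor induced by many kinds of cell stress, and IER3 is a short-lived protein that modulates ERK signalling and cell survival. In rodents and in cultured adrenal cells, corticotropin acting through cyclic AMP raises several of these transcripts in the adrenal cortex, and nerve input raises them in the chromaffin cells of the medulla.

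The samples were whole adrenal glands of 16 domestic pigs, 1 array each, in a group labelled high stress and a group labelled low stress with 8 animals each. High stress animals came from a mixing of unfamiliar pigs with high aggressiveness and low stress animals from a mixing with low aggressiveness, and both groups were therefore mixed. According to the submitters, the groups were selected because fighting and blood cortisol differed between them, and the question was how gene expression in the gland differed. The labels do not give the time between mixing and sampling, the age or the sex of the animals, and no unmixed animals were among the samples used here. The values are signals scaled to the same trimmed mean on every array and are given on the log2 scale. The gland was measured as a whole, so fewer cells of a type and less RNA per cell cannot be told apart.

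Median signals of the arrays ran from 116 to 147, and precision is limited by the number of arrays. By dap, a spiked-in bacterial control transcript, 2 sets of 8 arrays stood apart, with no mention of them in the labels. There were 4 high stress and 4 low stress animals in each. The high-spike set held high stress replicates 2, 3, 5 and 7 and low stress replicates 1, 3, 6 and 8, and the low-spike set held the other animals. The animal numbers in the labels begin with 4 different digits, whose meaning is not given, and each digit occurred once in each stress group of each set. For actin, the 3′ signal over the 5′ signal, a measure of RNA and label length, averaged 6.87 ± 1.2 in the high-spike set and 14.0 ± 3.71 in the low-spike set (SD, n = 8 each). The same ratio for GAPDH, a second control transcript, went the other way. It averaged 1.517 ± 0.105 in the high-spike set and 1.386 ± 0.067 in the low-spike set (SD, n = 8 each). With limma, 5767 of 14399 probe sets (40.1%) had an adjusted p under 0.05 for high-spike over low-spike, and 1 of the 8 member probe sets did. The steroid cell markers STAR, CYP11A1, CYP17A1 and HSD3B1 and the chromaffin marker PNMT had a mean log2 signal of at least 12.8. All 9 markers of steroid cells and all 6 of chromaffin cells on the array passed the filter.

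FOS, the partner that gives AP-1 its stable binding to DNA, varied widely among the animals. Its log2 signal had a lowest value of 10.78, a median of 12.14 and a highest value of 12.89 in the high stress animals. In the low stress animals these values were 10.76, 11.55 and 12.06. The 5 highest of the 16 values belonged to high stress animals, yet high stress replicate 6 lay among the 2 lowest, so the groups overlapped. FOS averaged 11.94 ± 0.68 in high stress animals and 11.49 ± 0.49 in low stress animals (SD, n = 8 each). The log2 difference was 0.45 (SE 0.27, 95% interval −0.13 to 1.03), or 1.37-fold. It did not pass the test over all probe sets (limma, unadjusted p = 0.118, adjusted p = 0.999; exact permutation p = 0.152, two-sided).

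IER3 had log2 signals with a lowest value of 8.73, a median of 9.54 and a highest value of 10.34 in high stress animals. In low stress animals they were 7.98, 8.77 and 9.86. In 4 low stress animals IER3 was below every high stress animal, and in 2 high stress animals it was above every low stress animal. IER3 averaged 9.47 ± 0.59 in high stress animals and 8.89 ± 0.66 in low stress animals (SD, n = 8 each). The log2 difference of 0.58 (SE 0.29, 95% interval −0.02 to 1.19), or 1.5-fold, was larger than that of any other member, and it did not pass the test (limma, unadjusted p = 0.0571, adjusted p = 0.999; exact permutation p = 0.0831, two-sided). Blocked on the leading digit of the animal numbers, the interval was 0.0097 to 1.16 (limma, unadjusted p = 0.0467, adjusted p = 0.999).

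JUN, the partner of FOS in AP-1, had closely similar means in the groups. Its log2 signal had a lowest value of 11.15, a median of 11.41 and a highest value of 11.96 in high stress animals, against 10.67, 11.36 and 12.33 in low stress animals. The low stress animals held both the lowest value and the 3 highest. JUN averaged 11.51 ± 0.31 in high stress animals and 11.55 ± 0.57 in low stress animals (SD, n = 8 each), a log2 difference of −0.04 (SE 0.22, 95% interval −0.49 to 0.42). FOSL2 was the steadiest member. It ranged from 8.64 to 9.31 with a median of 9.01 in high stress animals, and from 8.23 to 9.41 with a median of 8.86 in low stress animals, with a log2 difference of 0.14 (SE 0.15). ATF3 ranged from 5.90 to 8.24 with a median of 6.95 in high stress animals, and from 5.82 to 7.55 with a median of 7.15 in low stress animals, with a log2 difference of −0.07 (SE 0.30, 95% interval −0.70 to 0.56). Some ATF3 values lay under 6.15, the mean signal that the filter asked for.

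EGR1 was measured by 3 probe sets. They are named here by the ends of their identifiers, S1_s_at, A1_at and S1_at. The brightest, S1_s_at, whose ending marks probes that can match more than 1 transcript, had log2 signals with a lowest value of 10.59, a median of 11.62 and a highest value of 12.48 in high stress animals. In low stress animals the values were 10.50, 11.59 and 13.40. The highest value of all was that of low stress replicate 2. The log2 difference was 0.02 (SE 0.38, 95% interval −0.78 to 0.82). The probe set A1_at differed by −0.09 (SE 0.39) and S1_at by 0.01 (SE 0.64). Over the 16 animals A1_at and S1_s_at moved together (Pearson r = 0.95, permutation p = 1e-05, the smallest that 100000 resamples give, adjusted p = 3e-05; Spearman rho = 0.96, with the same permutation p), while S1_at followed the brightest less closely (Pearson r = 0.80, permutation p = 0.00019, adjusted p = 0.000285; Spearman rho = 0.75, permutation p = 0.00118). For the last pair, r was 0.97 and rho 0.74 within the high-spike set (exact permutation p = 0.00218 and 0.0458), and r was 0.91 and rho 0.55 within the low-spike set (exact permutation p = 0.00776 and 0.171, n = 8 each). The probe set S1_at was also the one that differed between the sets of arrays, by a log2 difference of 1.70 (SE 0.51, limma adjusted p = 0.0139), high-spike over low-spike. The other 2 EGR1 probe sets differed by 0.21 and 0.07, so the 3 disagreed. Among high stress animals the probe set S1_at was 10.14 to 11.22 in the high-spike set and 7.03 to 8.09 in the low-spike set. Among low stress animals the sets overlapped, with 8.36 to 11.18 in the high-spike set and 8.02 to 10.60 in the low-spike set.

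**Figure D1:**
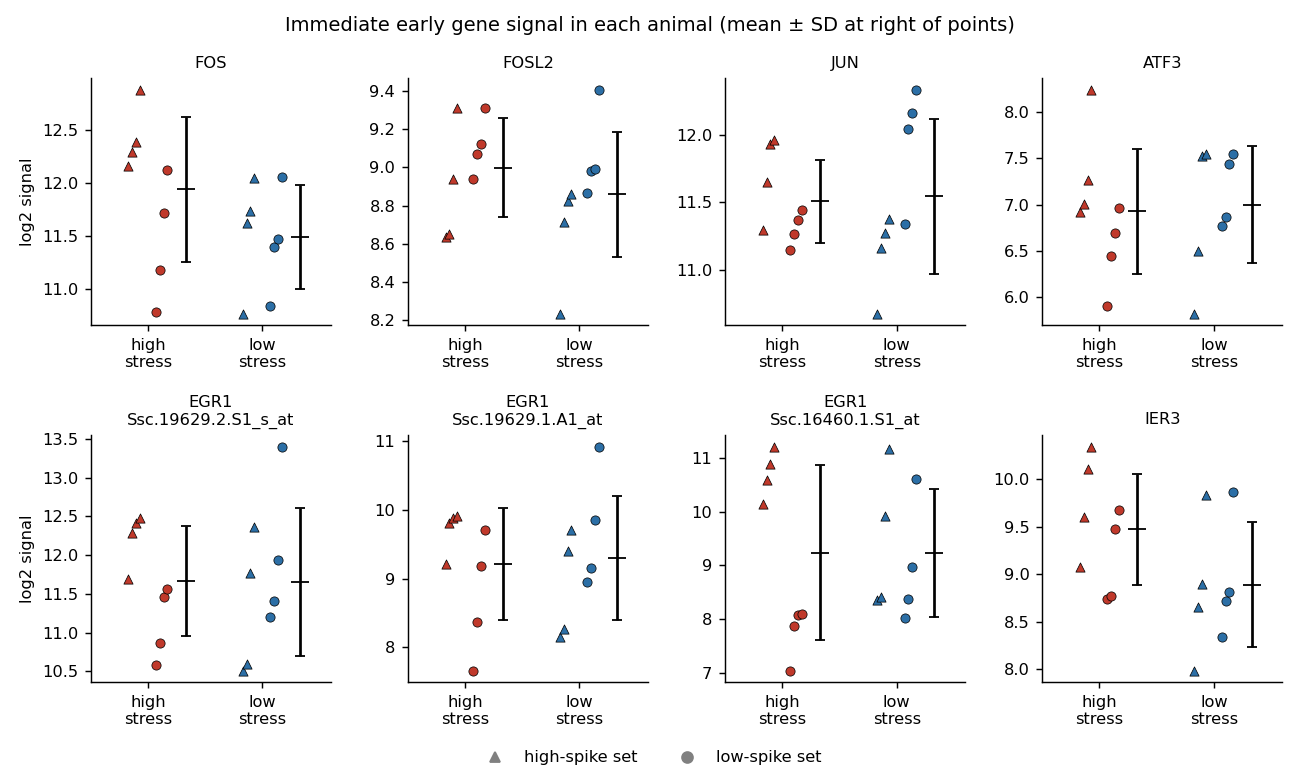
Log2 signal of the 8 member probe sets (vertical axes, 1 panel each) in every animal, with high stress left of low stress; marker shape gives the set of arrays and bars give the group mean and SD. The groups overlap in every panel, and the 5 highest FOS values are those of high stress animals.

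With high stress over low stress, 0 of the 8 member probe sets passed an adjusted p under 0.05, and 0 of 14399 probe sets (0%) did so. At an unadjusted p under 0.05 limma also gave 0 of the 8, against 460 of 14399 (3.19%). That 0 became 2 with each array centred on its median (IER3 and FOS), and it became 1, IER3, with quantile normalization, the leading digit as a block, or the actin ratio as a covariate beside the set block. Among the 6 genes, by the brightest probe set, 4 were higher and 2 lower in high stress animals with a median log2 difference of 0.08. Of the 5455 genes tested, 2739 were higher and 2716 lower, with a median of 0.0006. By probe set, 5 of the 8 were higher, against 5984 of all 14399 (41.6%). When each array was centred on its median all 6 genes and 7 of the 8 probe sets were higher, and so were 8761 of the 14399 probe sets (60.8%). With the set of arrays as a block 1 probe set (0.00694%), which was no member, passed the adjusted threshold, and the adjusted p was 0.785 for IER3 and 0.795 for FOS. A difference was thus not detectable with this number of arrays, and the 95% intervals reach log2 1.03 for FOS and 1.19 for IER3.

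The members differed among animals more than most probe sets of similar brightness. The SD of the log2 signal over the 16 animals was 0.62 for FOS, which was the 97.8th percentile of the 835 probe sets within 0.5 log2 of its mean. For IER3 it was 0.67, the 96.8th percentile of 2787. The brightest EGR1 probe set had an SD of 0.81, at the 99.4th percentile, and JUN one of 0.44, at the 91.1st. ATF3 (SD 0.63, 83.7th percentile) and FOSL2 (SD 0.29, 51.2nd percentile) were closer to the middle. Thus 4 of the 6 genes lay at or above the 90th percentile, against 1414 of 14399 probe sets (9.82%). Stress group and set of arrays accounted for part of the spread, and with both removed the SD was 0.50 for FOS, 0.62 for IER3, 0.32 for JUN and 0.74 for EGR1. The percentiles were then 96.8, 98.2, 86.3 and 99.3 in the same order, so JUN fell below the 90th. In signal, the highest animal exceeded the lowest 4.36-fold for FOS, 5.13-fold for IER3, 7.46-fold for EGR1, 3.16-fold for JUN, 5.35-fold for ATF3 and 2.26-fold for FOSL2.

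**Figure D2:**
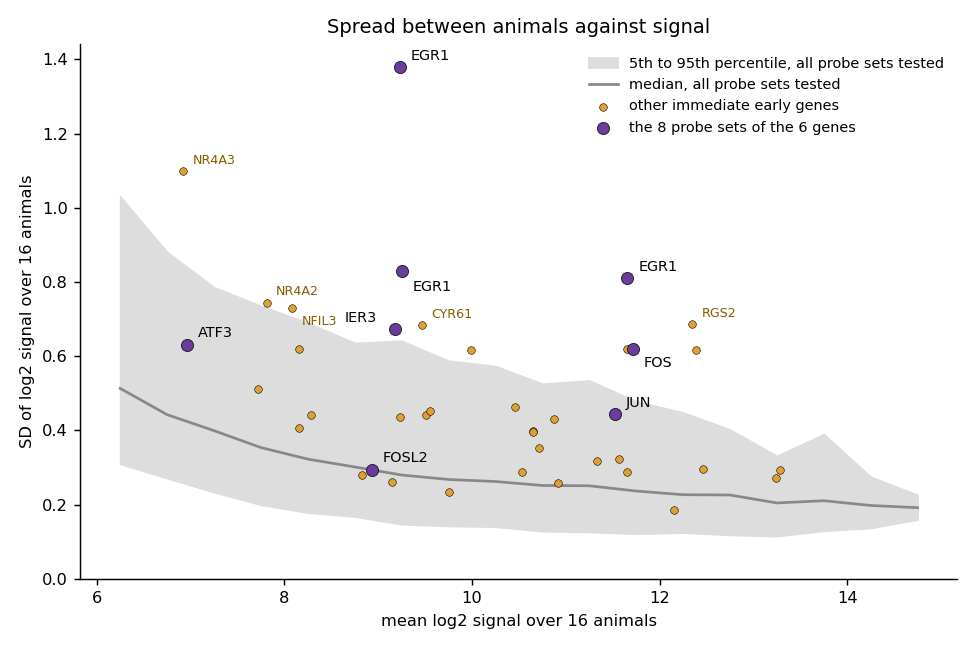
SD over the 16 animals (vertical axis, log2) against mean log2 signal (horizontal axis) with the member probe sets and the other immediate early genes as points; the grey band and line give the percentiles 5 to 95 and the median of all probe sets tested. FOS, IER3 and the 3 EGR1 probe sets sit above the band, and FOSL2 sits on the median line.

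FOS, IER3 and EGR1 varied together across the glands. Among the 15 pairs of the 6 genes, all 15 Pearson correlations were positive and 3 passed an adjusted p under 0.05 over the 15, by Pearson and by Spearman. The 3 were the pairs among FOS, IER3 and EGR1. For FOS and IER3, r was 0.73 (permutation p = 0.00144, adjusted p = 0.00815) and rho 0.78 (adjusted permutation p = 0.0025). For FOS and EGR1, r was 0.72 (permutation p = 0.00163, adjusted p = 0.00815) and rho 0.80 (adjusted permutation p = 0.0025). For IER3 and EGR1, r was 0.79 (permutation p = 0.0003, adjusted p = 0.0045) and rho 0.87 (adjusted permutation p = 0.0009). High stress replicate 7 had the highest FOS and the highest IER3, and low stress replicate 8 the lowest FOS and the lowest EGR1.

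The 3 relations were positive within each set of arrays. In the high-spike set r was 0.71 for FOS and IER3, 0.83 for FOS and EGR1 and 0.91 for IER3 and EGR1 (adjusted exact permutation p = 0.104, 0.0274 and 0.0093, n = 8). There rho was 0.79, 0.74 and 0.95, and only the last passed by Spearman (adjusted exact permutation p = 0.0838, 0.0982 and 0.0171). In the low-spike set it was 0.76, 0.68 and 0.66 for the same pairs (adjusted exact permutation p = 0.215 for each, n = 8). Without the 2 animals farthest from the median of the first gene, r was 0.64, 0.65 and 0.76 for these pairs. By Pearson, IER3 with EGR1 alone of the 3 still passed (adjusted permutation p = 0.0575, 0.0563 and 0.01). By Spearman all 3 passed, with rho of 0.72, 0.72 and 0.82 (adjusted permutation p = 0.0190, 0.0190 and 0.0112). JUN and EGR1, with r = 0.48 over all animals (permutation p = 0.0584), had 0.78 without the 2 animals farthest in JUN (adjusted permutation p = 0.01). FOS and JUN, the partners in AP-1, had r = 0.22 and rho = 0.23 over all animals (permutation p = 0.412 and 0.384), with r = 0.79 in the high-spike set and −0.06 in the low-spike set, and did not pass. FOS and FOSL2 had r = 0.08 and rho = −0.08 (permutation p = 0.763 and 0.781). FOSL2 and ATF3 had r = 0.40 and rho = 0.21 over all animals (adjusted permutation p = 0.234 and 0.527). In the high-spike set their r was 0.93 and their rho 0.83 (adjusted exact permutation p = 0.0223 and 0.0817), so the pair passed by Pearson only. In the low-spike set r was −0.0054.

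**Figure D3:**
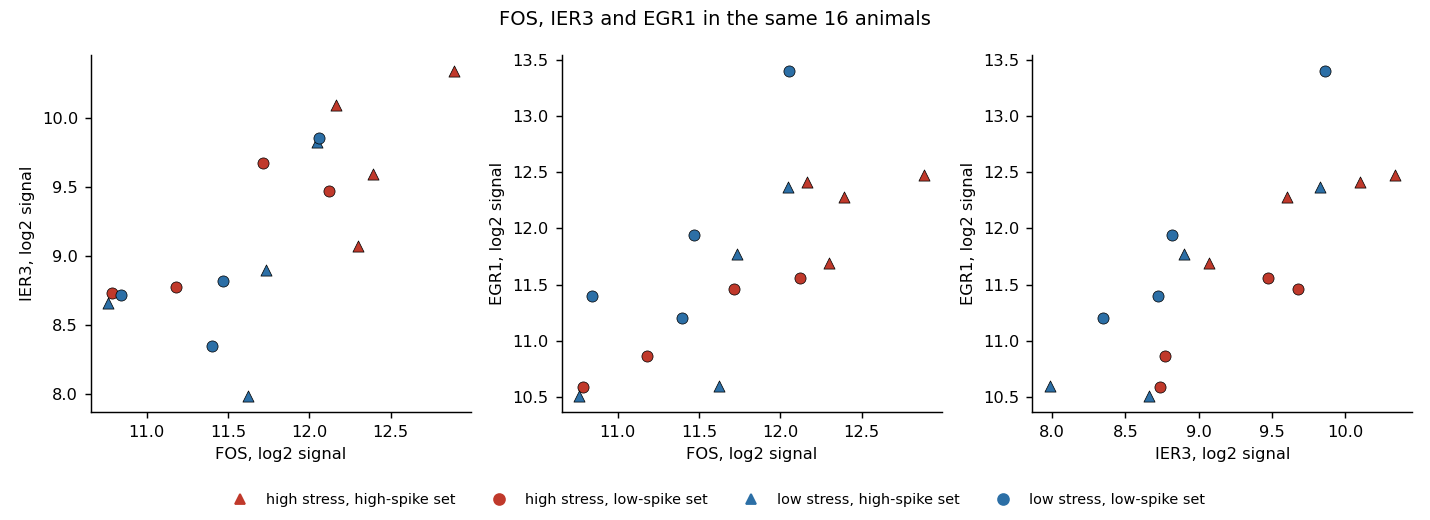
Log2 signals of FOS, IER3 and EGR1 (brightest probe set) plotted against each other, 1 point per animal, with colour for the stress group and shape for the set of arrays. The points rise together in each panel (r = 0.73, 0.72 and 0.79 over 16 animals).

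The probe sets most like FOS and IER3 were themselves largely of the immediate early kind. Likeness was measured as Pearson r over the 16 animals after each set of arrays was centred, and the values are descriptions over animals that share arrays and scaling. The 8 named probe sets most like FOS were ZFP36, which promotes decay of unstable mRNAs (r = 0.82), EGR1 with 2 probe sets (0.75 each), WLS, which carries Wnt ligands to the cell surface (0.74), the peroxisomal oxidase ACOX3 (0.73), DUSP1, a phosphatase that switches off MAP kinases (0.73), the galectin LGALS1 (0.73) and IER3 (0.73). The 8 most like IER3 were DUSP1 (r = 0.93), the growth regulator MYC (0.90), the antiproliferative TOB1 (0.85), RGS2, which dampens G protein signalling (0.85), the immediate early gene IER2 (0.84), ZFP36 (0.84), WLS (0.84) and the vascular growth factor VEGFA (0.81). In each list 5 of the 8 were in the immediate early lists used here, against 53 of 7272 probe sets with 1 symbol (0.729%). The 5 for FOS count EGR1 with 2 probe sets and include the members EGR1 and IER3, so they are not independent of the correlations above. An r with FOS of at least 0.5 was found for 244 of 14398 other probe sets (1.69%), and for 11 of the 32 other immediate early genes.

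Among these other immediate early genes, 32 of 38 on the array passed the filter, 20 were higher and 12 lower in high stress animals, and 0 passed the adjusted threshold. Their median log2 difference was 0.05, against 0.00 over the 5455 genes tested, of which 2739 were higher and 2716 lower. The 4 with the smallest p were BTG1, an antiproliferative gene, with −0.30 (SE 0.12), ZFP36 with 0.36 (SE 0.20), the leucine zipper factor CEBPD with 0.24 (SE 0.14) and RGS2 with 0.49 (SE 0.30). Of the 32, BTG1 alone had an unadjusted limma p under 0.05, beside 164 of the 5455 genes and 3.19% of all probe sets. Its adjusted limma p was 0.999. RGS2 had a lowest log2 signal of 11.60, a median of 12.50 and a highest of 13.75 in high stress animals, against 11.20, 11.99 and 13.19 in low stress animals, so its groups overlapped as those of FOS did. NR4A2 and NR4A3, nuclear receptors related to NR4A1 that are named here after their values were seen, had log2 differences of −0.12 (SE 0.35) and −0.20 (SE 0.51), with SDs of 0.74 and 1.10 over the animals. As a group, 9 of the 32 had an SD at or above the 90th percentile of probe sets of like signal, again beside 9.82% of all.

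Kinases upstream of these genes and adrenal genes downstream of such factors showed no called difference. In the MAP kinase pathway 7 of 9 genes passed the filter, 3 higher and 4 lower, with MAPK14 at −0.09 (SE 0.09), MAPK3 at 0.21 (SE 0.20), MAP2K4 at −0.08 (SE 0.10) and MAP2K2 at 0.07 (SE 0.10). In the cyclic AMP pathway 5 of 6 passed, 1 higher and 4 lower. They included MC2R, the corticotropin receptor, at −0.08 (SE 0.21), and the protein kinase A subunits PRKACB at −0.21 (SE 0.16), PRKAR2A at 0.13 (SE 0.29) and PRKAR1A at −0.03 (SE 0.10). ATF4, a leucine zipper factor that can pair with AP-1 proteins, was the 1 of 3 further AP-1 partners past the filter, at 0.25 (SE 0.13). Of 5 adrenal genes, 2 were higher and 3 lower. The steroid genes STAR (−0.03, SE 0.10), HSD3B1 (−0.09, SE 0.11) and CYP17A1 (0.10, SE 0.17) had values within their errors, and the metal-binding MT1A had −1.45 (SE 0.59) with an unadjusted p of 0.0252 and an adjusted p of 0.999 (limma). At or above the 90th percentile of SD were 0 of the 12 genes of the MAP kinase and cyclic AMP lists, beside 9.82% of all probe sets. With 12 genes these shares cannot be told apart.

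Within the sets of arrays the members parted. In the high-spike set FOS was 12.30, 12.39, 12.16 and 12.89 in the high stress animals, against 12.05, 11.62, 11.74 and 10.76 in the low stress animals. Its values in the low-spike set were 11.72, 11.18, 10.78 and 12.12 in the high stress animals, against 12.06, 10.84, 11.40 and 11.47 in the low stress animals. The groups did not overlap in the high-spike set and lay on top of each other in the low-spike set. The log2 difference was 0.89 (SE 0.32) in the high-spike set (limma, unadjusted p = 0.0137, adjusted p = 0.9999; exact permutation p = 0.0286, the smallest that 4 against 4 allow, two-sided). It was 0.01 (SE 0.32) in the low-spike set. High stress was above low stress without overlap for 90 of 14399 probe sets (0.625%) in the high-spike set and for 260 (1.81%) in the low-spike set. FOS was the 1 member probe set of 8 to do so, in the high-spike set alone.

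IER3 in the high-spike set was 9.07, 9.60, 10.10 and 10.34 in the high stress animals, against 9.83, 7.98, 8.90 and 8.66 in the low stress animals. Its values in the low-spike set were 9.68, 8.77, 8.73 and 9.48 in the high stress animals, against 9.86, 8.72, 8.34 and 8.82 in the low stress animals. The low stress animals with high values were replicate 1 in the first set and replicate 2 in the second, and the groups overlapped in both. The log2 difference was 0.94 (SE 0.40) in the high-spike set and 0.23 (SE 0.40) in the low-spike set (exact permutation p = 0.114 and 0.629). The second value was 0.033 without low stress replicate 5 and 0.54 without low stress replicate 2. FOS and IER3 were above 0 in both sets, although FOS in the low-spike set was −0.025 after quantile normalization. The difference between the sets was 0.88 (SE 0.45) for FOS and 0.71 (SE 0.56) for IER3 (exact permutation p = 0.125 and 0.310, labels exchanged within the sets). For IER3 it was 0.40 without low stress replicate 2 and 1.04 without low stress replicate 1.

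JUN in the high-spike set was 11.29, 11.93, 11.96 and 11.65 in the high stress animals, against 11.38, 11.27, 11.16 and 10.67 in the low stress animals. For the low-spike set the values were 11.44, 11.15, 11.37 and 11.27 in the high stress animals, against 12.04, 12.16, 12.33 and 11.34 in the low stress animals. JUN was mostly higher in high stress animals of the first set and lower in those of the second, with 1 low stress animal overlapping each time. The log2 difference was 0.59 (SE 0.21) in the high-spike set and −0.66 (SE 0.21) in the low-spike set (exact permutation p = 0.0571 and 0.0857). The difference between the sets was 1.25 (SE 0.30), with an unadjusted limma p of 0.00082, an exact permutation p of 0.00367 and an adjusted limma p of 0.9996.

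EGR1 by its brightest probe set was 11.69, 12.28, 12.41 and 12.48 in the high stress animals of the high-spike set, against 12.37, 10.60, 11.77 and 10.50 in its low stress animals. In the low-spike set it was 11.46, 10.86, 10.59 and 11.56 in the high stress animals, against 13.40, 11.40, 11.20 and 11.94 in the low stress animals. The log2 difference was 0.91 (SE 0.47) in the high-spike set and −0.87 (SE 0.47) in the low-spike set. The second value was −0.40 without low stress replicate 2, whose EGR1 signal was the highest of all. The difference between the sets was 1.78 (SE 0.66) for this probe set, 1.81 (SE 0.68) for A1_at and 2.47 (SE 0.84) for S1_at (exact permutation p = 0.0257, 0.0306 and 0.0188). ATF3 had log2 differences of 0.51 (SE 0.38) and −0.65 (SE 0.38), high-spike set first, which differed by 1.17 (SE 0.54, exact permutation p = 0.0649). The first was 0.17 without low stress replicate 3. FOSL2 had 0.23 and 0.05 (SE 0.18 each).

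Thus 5 of the 8 member probe sets, of 3 genes, were higher in high stress animals of the high-spike set and lower in those of the low-spike set, against 3011 of 14399 probe sets (20.9%). The same 5 had an unadjusted limma p under 0.05 for the difference between the sets, against 421 of 14399 (2.92%), and 0 of 14399 passed the adjusted threshold (0%). With quantile normalization, median centring or no filter ATF3 was lost, which left 4 probe sets of 2 genes. All 8 were higher in high stress animals of the high-spike set, as were 6292 of 14399 probe sets (43.7%), and 3 of the 8 had an unadjusted limma p under 0.05, against 438 of 14399 (3.04%). In the low-spike set 3 of 8 were higher, beside 6389 of 14399 (44.4%), and 1, JUN, had an unadjusted limma p under 0.05, against 895 of 14399 (6.22%). The members are not independent of each other, since FOS, IER3 and EGR1 covaried and 3 probe sets were of EGR1.

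**Figure D4:**
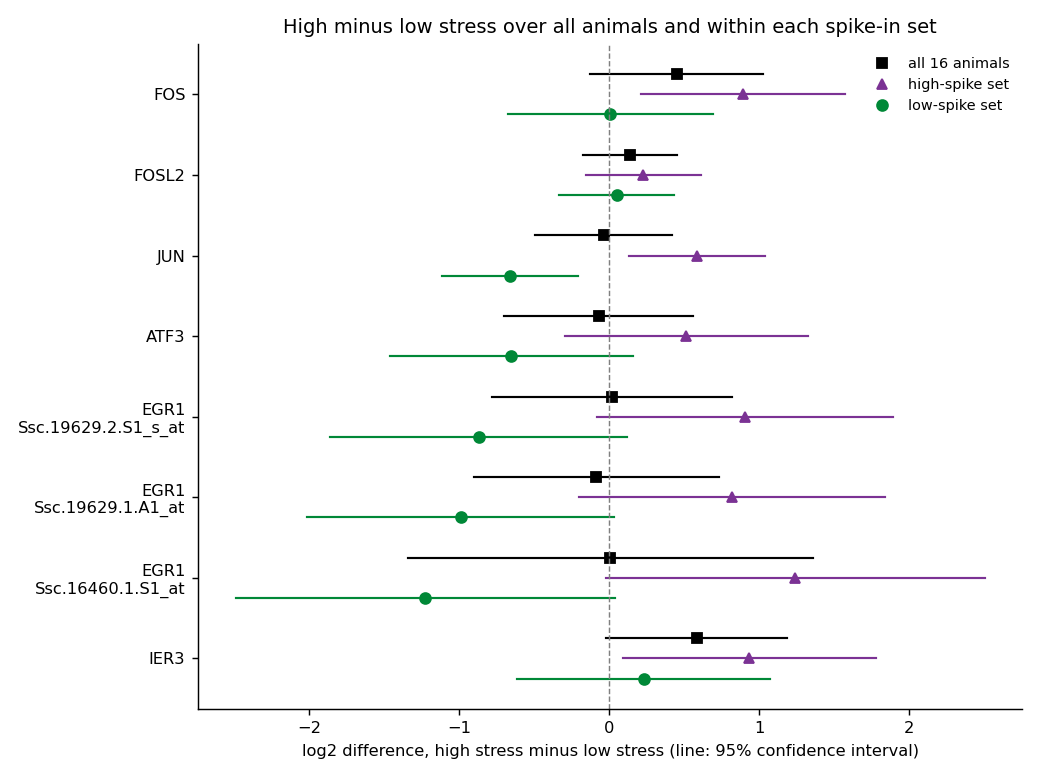
High minus low stress log2 difference of each member probe set with its 95% interval, over all 16 animals and within each set of arrays. All 8 lie above 0 in the high-spike set, while JUN, ATF3 and the 3 EGR1 probe sets lie below 0 in the low-spike set.

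The other immediate early genes were set out in the same way. Of the 32, 25 were higher in high stress animals of the high-spike set, beside 2693 of all 5455 genes (49.4%). In the low-spike set 11 were higher, beside 2812 genes (51.5%). The 32 had median log2 differences of 0.33 and −0.10. In 18 of the 32 the sign was positive in the high-spike set and negative in the low-spike set. The 32 are not independent of each other or of the members, since 11 had an r with FOS of at least 0.5. NR4A2 had 0.59 and −0.83 and NR4A3 0.67 and −1.07, while ZFP36 had 0.66 and 0.07, like FOS close to 0 in the low-spike set. BTG1, with −0.23 and −0.38, was negative in both. Over all 5455 genes the medians were −0.00 in the high-spike set and 0.01 in the low-spike set, and 1081 (19.8%) had the positive and then negative sign.

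**Figure D5:**
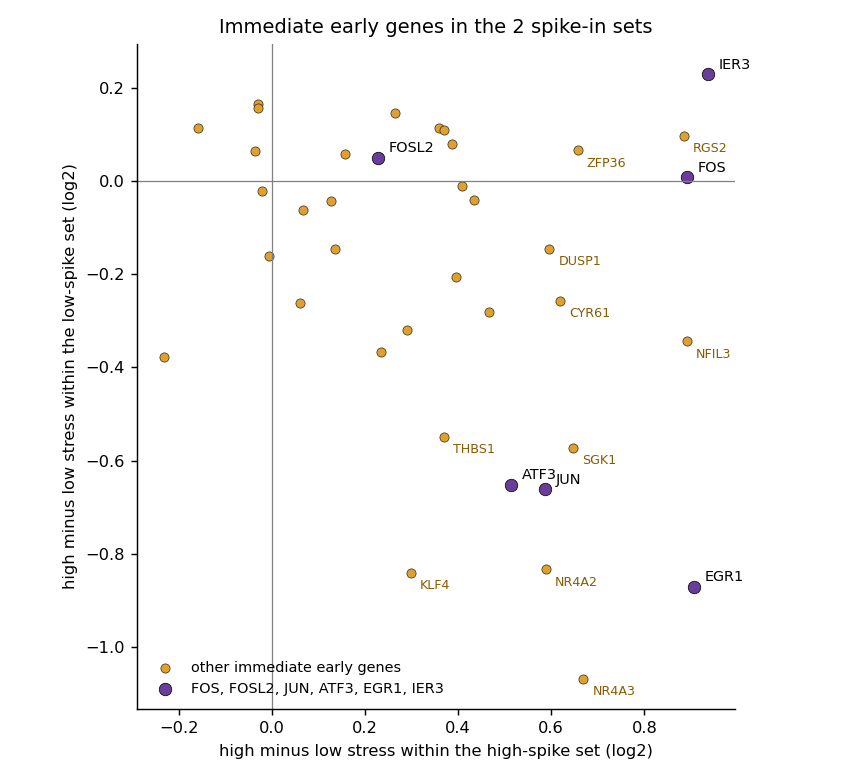
High minus low stress log2 difference in the low-spike set (vertical axis) against that in the high-spike set (horizontal axis) for the members and the other immediate early genes, 1 point per gene. Most immediate early genes lie right of 0, and NR4A3, NR4A2, EGR1 and JUN lie in the lower right.

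Cell type markers and array measures were set beside these values. Of 7 smooth muscle markers, 6 were on the array and all 6 past the filter. Their summed signal was 7367 to 19873 in high stress animals and 4220 to 19647 in low stress animals, and their mean log2 signal differed by 0.21 (exact permutation p = 0.312), with 0.40 in the high-spike set and 0.03 in the low-spike set. This was the largest difference among the marker lists. Markers of steroid cells differed by 0.03 and of chromaffin cells by 0.16 (exact permutation p = 0.660 and 0.374). Within the sets, high-spike first, these were 0.02 and 0.04 for steroid cells and 0.09 and 0.22 for chromaffin cells. Endothelial markers differed by −0.05 in all animals (exact permutation p = 0.474). With values centred on group and set, r with EGR1 was 0.51 for endothelial and 0.44 for smooth muscle markers, and r with FOS 0.05 and 0.37. For steroid cell markers r was −0.14 with EGR1 and −0.34 with FOS, and for chromaffin markers −0.27 and 0.20. In the remaining marker lists r ran from −0.24 to 0.28 with EGR1 and from −0.23 to 0.30 with FOS. In the high-spike set the 3′ to 5′ actin ratio averaged 6.06 ± 0.67 in high stress animals and 7.67 ± 1.09 in low stress animals, and in the low-spike set 13.2 ± 1.40 in high stress animals and 14.8 ± 5.32 in low stress animals (SD, n = 4 each). After centring on group and set, r with the median signal of the array was 0.37 for FOS, 0.45 for IER3 and 0.50 for EGR1. For JUN, FOSL2 and ATF3 it was 0.08, 0.00445 and −0.37. With dap, r was 0.73 for FOSL2, 0.45 for ATF3, 0.34 for IER3, 0.17 for EGR1, 0.04 for JUN and −0.04 for FOS. These r values were not tested. The part of these cell types and of RNA length in the members' values was not tested. A fit with the actin ratio as a covariate was the exception, and 0 of the 8 passed in it (smallest limma adjusted p = 0.588).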

How the data were processed

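Signals of the Affymetrix Porcine Genome Array were used as deposited, as linear intensity; the submitters' processing notes name MAS5 and Affymetrix Expression Console 1.1.1. In every deposited column the mean without the extreme 2% at each end was 500 within rounding (499.838 to 499.875). Values were taken to log2, 124 control probe sets were set aside, and probe sets with a mean under the 40th percentile (signal 71.1) were left out. Symbols came from the platform annotation: 10069 probe sets had 1, 198 several and 13732 none, and 9961 matched the gene table of Sscrofa11.1, used for names only. Where a gene had several probe sets, the brightest stands for it unless others are named.

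High and low stress were set against each other without covariates in limma 3.58.1 under R 4.3.3 (two-sided, Benjamini-Hochberg over 14399 probe sets), and within sets of arrays with a mean for each group and set. Single members also had exact permutation tests over 12870 splits, over 70 within a set, and over 4900 with labels exchanged within the sets. Exchange within the sets assumes no difference between high and low stress in either set. Correlations used 100000 resamples, or all pairings of 8, in scipy 1.17.1. The text names all member probe sets, up to 4 genes with the smallest p from each other list, and the 8 probe sets most like FOS and like IER3. The members and lists were chosen with earlier results of these data known, and the sets of arrays were found in the data. Replicates are separate animals, numbered in the order of deposit. Code was tested on simulated data.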

Additional observations from a re-analysis of the deposited data

Results flagged for a closer look

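In 2 genes the difference between high and low stress animals was unlike in the 2 sets of arrays. The exact permutation p was under 0.05, with labels exchanged within the sets and no adjustment over genes. Such exchange assumes no stress difference in either set, so this p alone does not test whether the differences are equal. For JUN the log2 difference in the high-spike set exceeded that in the low-spike set by 1.25 (exact permutation p = 0.00367). For EGR1 it did so by 2.47 with the probe set S1_at, by 1.81 with the probe set A1_at and by 1.78 with the probe set S1_s_at (exact permutation p = 0.0188, 0.0306 and 0.0257). None of the 4 passed in limma over all probe sets (adjusted p = 0.9996 for each). What separates the sets is not given in the labels, so its part in this was not tested. No animal stood apart from its group in any member by Dixon's ratio.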

How the results depend on the processing

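The labels give the animals no shared replicate numbers, and they do not say what the leading digit of the animal numbers stands for. With that digit as a block, with digit and set as blocks, or with pairs of the same digit and set as a block, 0 members passed, and the IER3 unadjusted limma p was 0.0467, 0.0450 and 0.052. The count of 0 called members held under every filter, scaling, weighting, block and omission of 1 animal that was run (0 to 0). ATF3 was not tested with the filter at the 60th percentile. FOS stayed positive over all animals without any 1 animal (0.32 without high stress replicate 7 to 0.62 without high stress replicate 6), as did IER3 (0.45 without low stress replicate 3 to 0.72 without low stress replicate 2). Members near 0 changed sign. With array weights EGR1 was −0.16 (S1_at) and −0.025 (S1_s_at) and JUN 0.020, and with the actin covariate and block the 2 EGR1 values were −0.025 and −0.024. With median centring JUN was 0.036, ATF3 0.00397, PRKAR1A 0.043 and STAR 0.040, and with quantile normalization STAR was 0.022 and FOS −0.025 within the low-spike set. With 1 animal left out, the ranges were −0.26 to 0.078 for ATF3, −0.16 to 0.076 for JUN, and −0.28 to 0.32, −0.25 to 0.15 and −0.15 to 0.27 for the EGR1 probe sets S1_at, A1_at and S1_s_at. Within the low-spike set they were −0.22 to 0.23 for FOS and −0.017 to 0.17 for FOSL2. The causes were not tested.

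By Pearson, the count of 3 called correlations became 5 with values centred on the set of arrays, 5 with values centred on group and set, and 0 within the low-spike set, where 8 animals remain. By Spearman it was 3, 4 and 0 in these settings. The pairs added by Pearson were IER3 with FOSL2 (r = 0.62 centred on group and set, 0.68 on the set) and FOSL2 with ATF3 (0.70 and 0.65), of which FOSL2 with ATF3 centred on group and set was also called by Spearman. Without the 2 farthest animals 2 pairs were called by Pearson and 4 by Spearman, and within the high-spike set 3 and 1. Pairs that turned negative were FOS with FOSL2 (−0.070 quantile normalized, −0.16 without the 2 farthest animals), FOS with JUN (−0.015 without the 2, −0.064 within the low-spike set), and, within that set too, IER3 with JUN (−0.19), IER3 with ATF3 (−0.20) and FOSL2 with ATF3 (−0.0054). FOSL2 with JUN was −0.22 centred on group and set, −0.0086 centred on the set, −0.12 without the 2 and −0.056 within the low-spike set. FOSL2 with EGR1 was −0.22 without the 2, and JUN with ATF3 −0.18 centred on group and set. The quantile normalization combined with the set block, the block of pairs, the digit block within sets, the centring on the set alone and the exact tests within sets were chosen after seeing the data. Detection calls were not used, so how far ATF3 stood above background is not known here.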
